A study of Rattus norvegicus with 16 samples.

Results

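Bone morphogenetic proteins (BMPs), their intracellular inhibitors and the Id genes they induce were followed across the 4 groups of a rat adrenal medulla series. The 10 genes were the ligands Bmp2, Bmp4, Bmp6 and Bmp7, the target genes Id1, Id2, Id3 and Id4, and the inhibitory Smads Smad6 and Smad7. They were taken by name from a list written for this pathway, as every probe set whose only gene symbol in the platform annotation is one of them. All 10 were present, with 23 probe sets, among 14217 genes with a single symbol and 31042 probe sets on the array. The members with 1 probe set each numbered 4, Bmp4, Bmp7, Id1 and Id3.

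BMPs are secreted ligands of the TGF-beta superfamily. They bind pairs of type I and type II receptor kinases, which phosphorylate Smad1, Smad5 and Smad9, and these enter the nucleus with Smad4. Id1, Id2 and Id3 are among the genes most directly induced, and their proteins lack a DNA-binding region and hold E proteins such as Tcf3, Tcf4 and Tcf12 away from DNA. Smad6 and Smad7 are induced as well and feed back on the receptors. In the embryo, BMPs from the dorsal aorta induce the sympathoadrenal lineage in neural crest cells, the lineage from which the chromaffin cells of the adrenal medulla arise.

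Hyperplasia (8 arrays, medullary hyperplasia of the adrenal gland, 2 months old, replicates 1 to 4 labelled female and 5 to 8 male) was set against young wild-type medulla (2 arrays, 2 months old, pool 1 of 2 animals labelled male and pool 2 of 3 animals labelled female). Pheochromocytoma, a tumour of chromaffin cells (4 arrays, replicates 1 to 3 labelled female and 8 months old, replicate 4 male and 9 months old), was set against older wild-type medulla (2 arrays, pool 1 of 2 animals, female, 10 months old, and pool 2 of 2 animals, male, 12 and 17 months old). Both lesions came from rats labelled as mutant for p27Kip1, the cell cycle inhibitor encoded by Cdkn1b, and every rat was of the mixed strain Sprague–Dawley white eye/Wistar–Kyoto. Each wild-type array is a pool, so the spread between 2 pools is not that between single animals, and the lesion arrays are called biological replicates in their titles. Values are log2 levels from RMA, in which a difference of 1 is a 2-fold change, and levels of different probe sets are not compared with each other.

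The arrays carried differences that touch the members. Xist, which is transcribed from the inactive X chromosome, went against the labelled sex on 4 of the 8 hyperplasia arrays (replicates 1, 2, 5 and 6) and on both young pools, and on 0 of the 4 pheochromocytoma and 0 of the 2 older arrays. Markers of chromaffin cells (8 of 8 measured) averaged 13.13 to 13.26 in hyperplasia, against 13.21 to 13.34 in young wild type, and 13.03 to 13.51 in pheochromocytoma, against 12.64 to 13.06 in older wild type. Markers of adrenal cortex (10 of 12 measured) averaged 11.06 to 11.91 in hyperplasia, against 12.31 to 12.41 in young wild type, and 10.94 to 12.39 in pheochromocytoma, against 12.73 to 13.03 in older wild type. Cortex marker means were lower in every lesion array than in both of its pools. A fit with this mean as a covariate therefore cannot fully separate cortex content from lesion. The control probe sets for the 3′ and 5′ ends of hexokinase differed by 2.16 to 3.30 in pheochromocytoma and 2.29 to 2.92 in older wild type. They differed by 1.21 to 1.63 in hyperplasia, against 1.07 to 1.18 in young wild type, so this measure of RNA quality moved with age and stage. Cdkn1b itself gave opposite answers in hyperplasia, 0.73 ± 0.11 (SE, adjusted p = 0.0017) at 1373812_at and -0.81 ± 0.22 (adjusted p = 0.0394) at 1369192_at. The sources used here do not place these probe sets against the altered part of the gene, so Cdkn1b does not check the labels.

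Of the 10 genes, 3 had at least 1 probe set that passed the test in hyperplasia and 4 in pheochromocytoma. Bmp7 was the one that rose in both. By the brightest probe set alone, 2 genes passed in hyperplasia and 2 in pheochromocytoma, where 8.50% and 15.3% of 14217 genes did. In hyperplasia 3 of the 23 member probe sets passed the test, 1 higher (Bmp7) and 2 lower (Bmp6 and Id2). Over all probe sets 7.17% passed, 4.16% higher and 3.01% lower (limma, Benjamini-Hochberg adjusted p under 0.05, 31042 probe sets). In pheochromocytoma 5 of 23 passed, 1 higher (Bmp7) and 4 lower (both Bmp2 probe sets, 1 of Bmp6 and 1 of Id4), where 13.0% of all probe sets passed, 7.51% higher and 5.46% lower. The member probe sets had a median difference of -0.16 in hyperplasia, against -0.02 for all probe sets, and -0.24 in pheochromocytoma, against -0.01. Groups did not overlap for 4 of 23 members in hyperplasia (19.2% of all probe sets) and for 8 of 23 in pheochromocytoma (39.8% of all). For the difference between the 2 effects 0 of 23 members passed with limma, beside 6 of all probe sets (0.0193%), and 3 members had an unadjusted p under 0.05, as did 10.8% of all probe sets. In bulk tissue, fewer cells that express a gene and less RNA per cell cannot be told apart. Of the 23, 17 lay above the dimmest 30% of probe sets by mean level, and Smad6 1377467_at and Smad7 1368897_at were below the first quartile of every array.

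**Figure D1:**
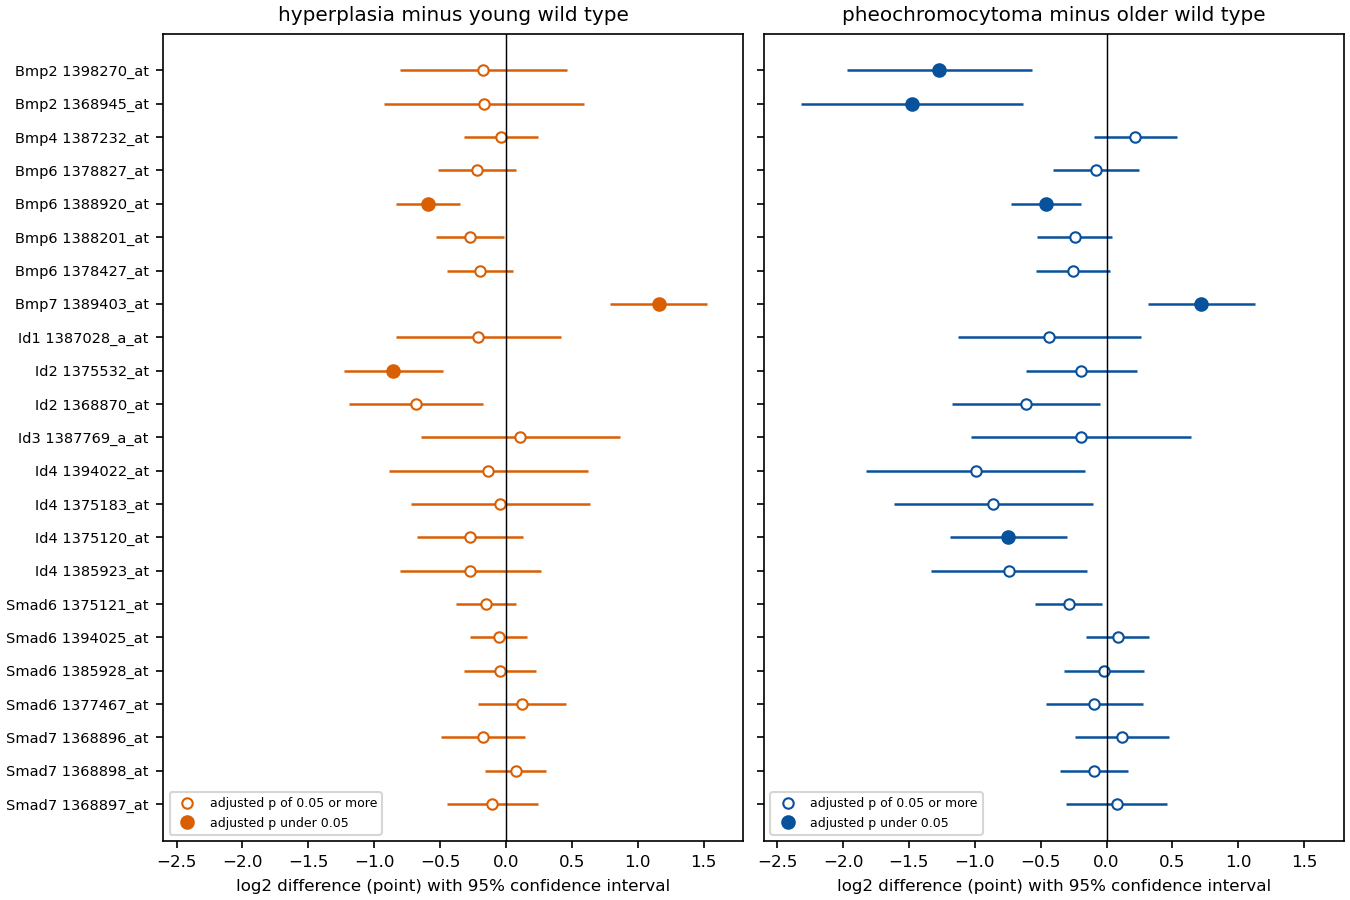
Fitted log2 differences of the 23 member probe sets with 95% confidence intervals, hyperplasia minus young wild type on the left and pheochromocytoma minus older wild type on the right. Filled points have an adjusted p under 0.05, 3 on the left and 5 on the right, and Bmp7 is the only filled point to the right of 0 in either panel.

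Bmp7, a ligand best known for its part in kidney and eye development, was higher in both lesions. In hyperplasia its level had a lowest value of 7.99, a median of 8.20 and a highest of 8.56, against 6.90 and 7.24 in the young pools. All 8 hyperplasia arrays lay above both pools. The difference was 1.16 ± 0.17 (SE), or 2.23-fold, with an adjusted p of 0.00137. In pheochromocytoma the levels were 7.26, 7.78, 7.91 and 7.79 in replicates 1 to 4, against 6.83 and 7.07 in the older pools. Again no tumour lay within the range of the pools, and replicate 1 came nearest to them. The difference was 0.72 ± 0.19 (1.65-fold, adjusted p = 0.0235), and the effect in pheochromocytoma minus that in hyperplasia was -0.44 ± 0.26 (adjusted p = 0.560). Set directly against each other, pheochromocytoma was lower than hyperplasia by a difference of -0.56 ± 0.14 (adjusted p = 0.00448), with no overlap, while older minus young wild type was -0.12 ± 0.22 (adjusted p = 0.736).

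The rise of Bmp7 in hyperplasia passed the test in each of 16 fits that left out 1 array (1.01 to 1.31). In pheochromocytoma it missed the threshold without replicate 3 (0.65, adjusted p = 0.0514), replicate 4 (0.64, adjusted p = 0.082), older pool 1 (0.52, adjusted p = 0.206) or older pool 2 (0.89, adjusted p = 0.0891), and with the mean of the cortex markers as a covariate (0.59, adjusted p = 0.413). Without the 4 hyperplasia arrays whose Xist went against the label, and with no term for sex, Bmp7 in hyperplasia was higher by 1.08 (adjusted p = 0.0114). Over the 16 arrays, the genes whose levels followed Bmp7 most closely were Nxph4, Itpk1 and Plxna4, by the root mean square difference of log2 values after each gene was centred on its own mean (0.215, 0.219 and 0.219). The median of all 14207 genes compared was 0.584. These genes were picked by likeness to Bmp7 over the same 16 arrays, so their differences were bound to resemble its own. Nxph4, a neurexophilin, was higher by 1.16 in hyperplasia (adjusted p = 0.00142) and had a difference of 0.60 in pheochromocytoma (adjusted p = 0.0519). Itpk1, an inositol phosphate kinase, had differences of 0.73 and 0.40 (adjusted p = 0.00277 and 0.0679), and Plxna4, a semaphorin receptor, of 0.72 and 0.50 (adjusted p = 0.015 and 0.0758).

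**Figure D2:**
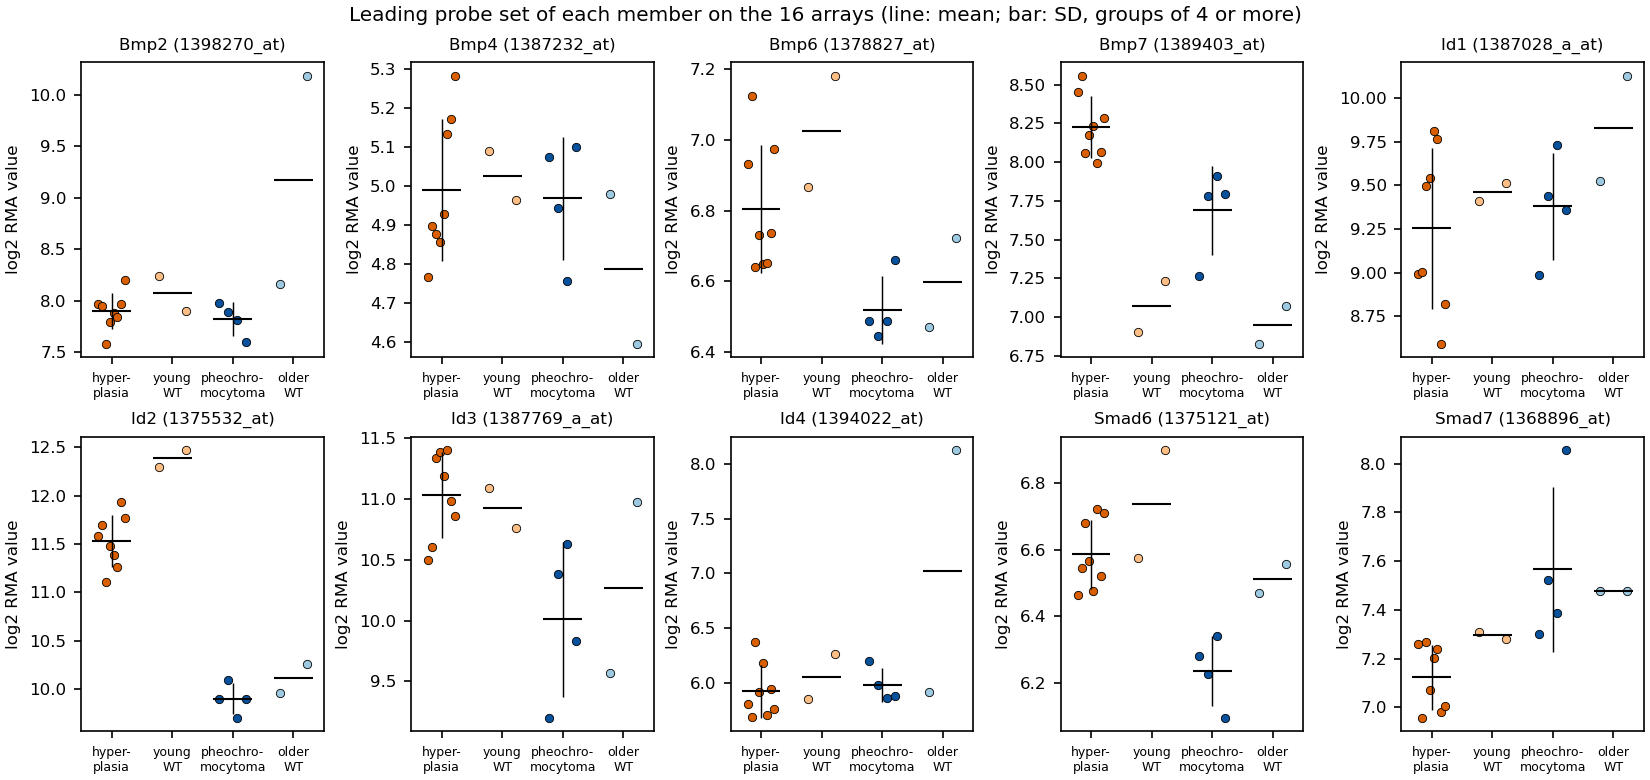
Log2 level of the brightest probe set of each member on every array, by group, with the mean as a line and the SD as a bar for groups of 4 or more arrays. Each panel has its own axis, and Bmp7 is above its pools in all 12 lesion arrays while Bmp2 and Id4 have 1 older pool far above the other arrays.

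Bmp2, a ligand that drives bone formation and heart development, was lower in pheochromocytoma, and the call rested on 1 wild-type pool. At 1398270_at the levels were 7.98, 7.89, 7.81 and 7.59 in pheochromocytoma, against 8.16 in older pool 1 and 10.18 in older pool 2. At 1368945_at they were 7.02, 6.90, 7.09 and 6.44, against 7.31 and 9.50. Older pool 2 exceeded the next highest of all 16 arrays by 1.95 and 2.20; older pool 1 lay just above the highest tumour at both probe sets. The differences were -1.27 ± 0.33 (adjusted p = 0.0208) and -1.48 ± 0.39 (adjusted p = 0.0239), and without older pool 2 they were -0.36 (adjusted p = 0.428) and -0.44 (adjusted p = 0.502). Without tumour replicate 4 they were -1.03 (adjusted p = 0.0806) and -1.17 (adjusted p = 0.0916). In hyperplasia Bmp2 at 1398270_at ranged over 7.58 to 8.20 with a median of 7.91, against 8.24 and 7.90 in the young pools, so the groups overlapped (-0.17 ± 0.30, adjusted p = 0.790), and at 1368945_at it ranged over 5.87 to 6.49, against 6.59 and 6.07 (-0.16 ± 0.36, adjusted p = 0.839). The second probe set was higher in older than in young wild type by 2.07 ± 0.45 (adjusted p = 0.00418), and by 0.96 without older pool 2 (adjusted p = 0.0603). The first was higher by 1.10 ± 0.38 (adjusted p = 0.0456), and by 0.12 without that pool.

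Id4, the Id family member best known from neural and glial precursors, had the same array apart. At its brightest probe set, 1394022_at, the levels were 6.20, 5.98, 5.87 and 5.88 in pheochromocytoma, against 5.92 and 8.13 in older pools 1 and 2. The remaining probe sets had 6.92, 6.15 and 5.21 in older pool 2, above every other array, with 5.15, 5.05 and 3.77 in older pool 1. Of the 4 probe sets only 1375120_at passed the test in pheochromocytoma (-0.74 ± 0.21, adjusted p = 0.0304). It had 4.82, 4.84, 4.78 and 4.79 in the tumours, against 5.05 and 6.15 in the older pools. It is one of the 6 dim member probe sets, and all 4 tumour levels lay below the first quartile of their arrays (4.86 to 4.88), so the size of this difference is uncertain. Without older pool 2 it was -0.26 (adjusted p = 0.554), and without tumour replicate 4 it was -0.66 (adjusted p = 0.0989). The others had differences of -0.99, -0.86 and -0.74 (adjusted p = 0.106, 0.121 and 0.0918). In hyperplasia the 4 differences lay between -0.27 and -0.04, and none passed.

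Older pool 2 exceeded every other array by more than 1 at 5 of the 23 member probe sets, where 223 of all 31042 probe sets (0.718%) did so. Each of these 5 belonged to Bmp2 or Id4. The same pool had the highest mean of 6 immediate early genes (10.60, against 7.99 in older pool 1), the inducible cyclooxygenase gene Ptgs2 at 7.15, against 2.83 to 3.40 on the other arrays, and a mean adipocyte marker level of 6.17, against 4.90 to 5.56. It also differed from pool 1 in labelled sex and in age. With the immediate early mean as a covariate, an alternative chosen after seeing the data, the differences in pheochromocytoma were -1.22 and -1.42 for Bmp2 (adjusted p = 0.0187 and 0.0216) and -0.70 for Id4 at 1375120_at (adjusted p = 0.0216). In this setting Id4 also passed at 1375183_at (-0.76, adjusted p = 0.0426) and at 1385923_at (-0.67, adjusted p = 0.0406). The latter probe set was below the first quartile on 15 of the 16 arrays. The parts of the adipocyte markers and of Ptgs2 were not tested, and age and sex cannot be told apart in this pool.

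**Figure D3:**
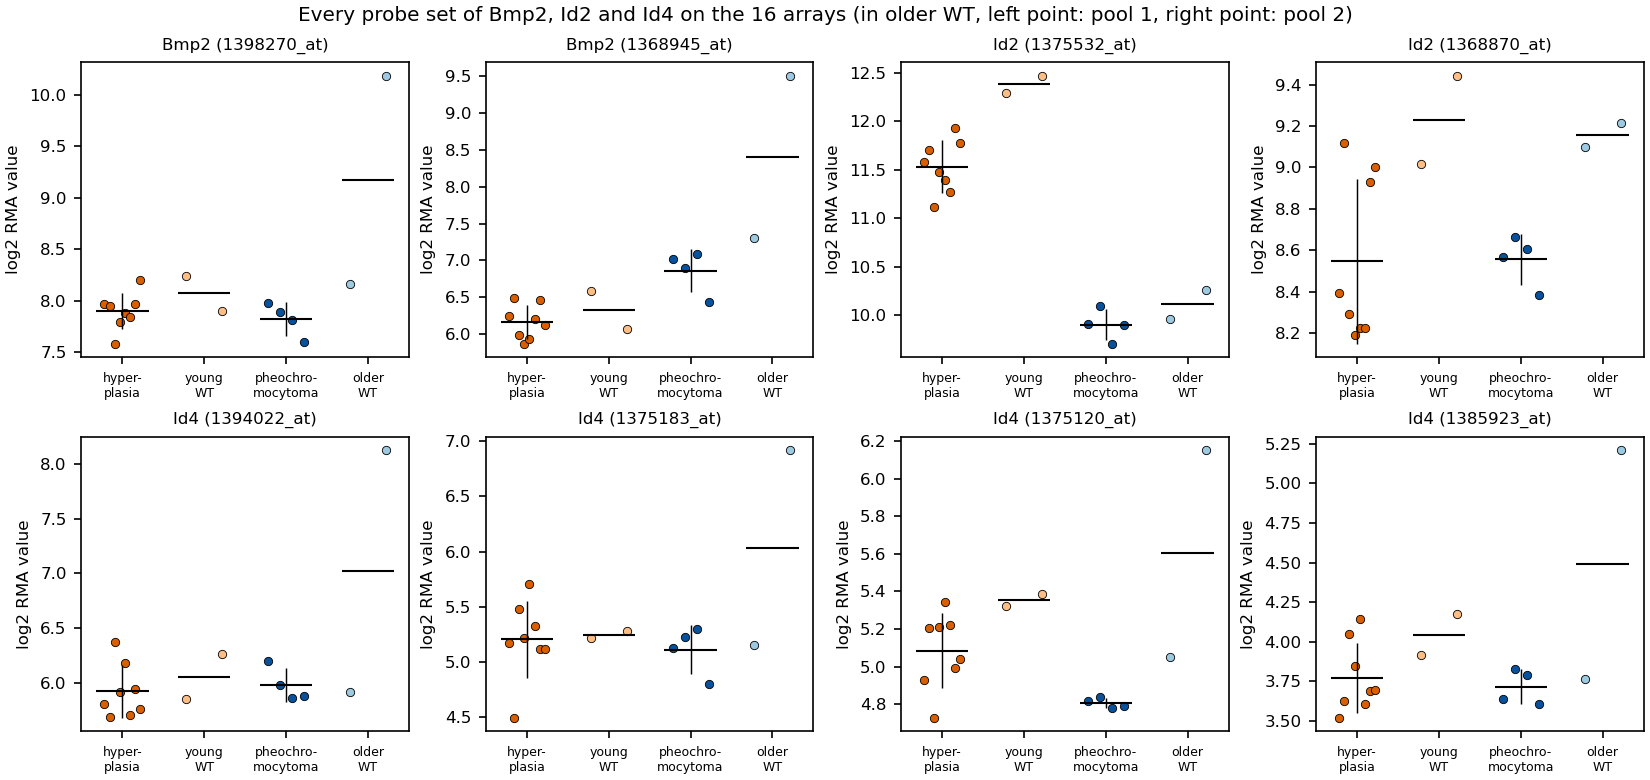
Log2 level of every probe set of Bmp2, Id2 and Id4 on the 16 arrays, with group means as lines and SDs as bars for groups of 4 or more arrays. Older pool 2 (right point of the older wild type) stands above all other arrays at both Bmp2 and all 4 Id4 probe sets, and the 2 Id2 probe sets differ in how pheochromocytoma and older wild type sit against the young groups.

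Bmp6, a ligand that induces hepcidin in the liver, was lower in both lesions at 1 of its 4 probe sets. At 1388920_at the hyperplasia arrays ranged over 5.87 to 6.33 with a median of 6.20, against 6.70 and 6.82 in the young pools. The tumours had 5.92, 6.13, 6.03 and 6.07, against 6.49 and 6.50 in the older pools. No lesion array reached its pools. The differences were -0.59 ± 0.11 (adjusted p = 0.00631) and -0.46 ± 0.13 (adjusted p = 0.0271). At the brightest probe set, 1378827_at, the differences were -0.22 ± 0.14 and -0.08 ± 0.15, and neither passed. At 1388201_at they were -0.28 ± 0.12 and -0.24 ± 0.13 (adjusted p = 0.192 and 0.252), and at 1378427_at -0.20 ± 0.12 and -0.26 ± 0.13 (adjusted p = 0.354 and 0.212). All 4 probe sets had negative differences in both comparisons, from -0.59 to -0.08. The call at 1388920_at was lost without young pool 2 (-0.54, adjusted p = 0.132) in hyperplasia, in pheochromocytoma without either older pool (-0.48 and -0.44, adjusted p = 0.0904 and 0.213), tumour replicate 1 (-0.42, adjusted p = 0.0517) or tumour replicate 4 (-0.49, adjusted p = 0.0548), and with the mean of the cortex markers as a covariate in both (adjusted p = 0.060 and 0.288). Without the 4 hyperplasia arrays whose Xist went against the label, the difference in hyperplasia was -0.57 (adjusted p = 0.0252).

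Bmp4, one of the ligands of the dorsal aorta, was dim and did not pass the test in either lesion. Its single probe set had a level of 4.77 to 5.28 in hyperplasia (median 4.91), against 5.09 and 4.96 in young wild type. It had 5.08, 4.94, 4.76 and 5.10 in pheochromocytoma, against 4.98 and 4.60 in older wild type. On 2 of the 16 arrays it was below the array's first quartile. The differences were -0.04 ± 0.13 (95% interval -0.32 to 0.25) and 0.22 ± 0.15 (interval -0.10 to 0.53).

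Id2, which restrains differentiation in many lineages and binds the retinoblastoma protein, had a lower level in hyperplasia. At its brightest probe set, 1375532_at, the hyperplasia arrays ranged over 11.11 to 11.94 with a median of 11.53, against 12.30 and 12.47 in the young pools. Every hyperplasia array was below both pools, and the difference was -0.85 ± 0.18 (adjusted p = 0.0101), a 1.81-fold lower level. The second probe set, 1368870_at, had 8.19 to 9.12 (median 8.34), against 9.02 and 9.44, with 1 hyperplasia array above the lower pool. Its difference was -0.68 ± 0.24 (adjusted p = 0.0994). It passed with the Xist level in place of labelled sex (-0.69, adjusted p = 0.0352) and without hyperplasia replicate 2 (-0.77, adjusted p = 0.0431). In pheochromocytoma the second probe set had 8.57, 8.67, 8.61 and 8.38, against 9.10 and 9.21, without overlap (-0.61 ± 0.26, adjusted p = 0.140). The brightest had 9.90, 10.10, 9.70 and 9.89, against 9.96 and 10.26, which overlapped (-0.19 ± 0.20, adjusted p = 0.560). The call in hyperplasia was lost without young pool 2 (-0.70, adjusted p = 0.203) and with the mean of the cortex markers as a covariate (-0.60, adjusted p = 0.189), and it was lost without the 4 hyperplasia arrays whose Xist went against the label (-0.81, adjusted p = 0.0637).

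The 2 Id2 probe sets disagreed on stage and age. At 1375532_at pheochromocytoma was lower than hyperplasia by a difference of -1.61 ± 0.14 (adjusted p = 4.7e-07) and older wild type lower than young by -2.28 ± 0.22 (adjusted p = 8.2e-06). At 1368870_at the same differences were within 0.01 of 0 (interval -0.40 to 0.40) and -0.07 ± 0.30 (adjusted p = 0.889). The hexokinase 3′ minus 5′ difference separated the same groups, with at least 2.16 on every tumour and older array and at most 1.63 on every hyperplasia and young array. The part of RNA quality in the fall at 1375532_at was not tested, and the position of each probe set in the transcript was not analysed here. The hexokinase difference was also higher on every hyperplasia array (1.21 to 1.63) than on the young pools (1.07 and 1.18). Its part in the hyperplasia call at this probe set was not tested either.

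The stretch of 250 bases before the transcription start is shown for Id1, Id3 and Id2 because these targets differed in how they varied across the arrays. The sequences are from RefSeq on build GRCr8, read 5′ to 3′ on the gene's strand: Id1 at chr3:161671314-161671563 (plus strand), Id3 at chr5:153656041-153656290 (plus) and Id2 at chr6:47470996-47471245 (minus). Capitals mark matches on either strand to 6 motifs. The motif GGCGCC is a GC-rich sequence bound by BMP-activated Smads, and the Smad box was searched as CAGAC. The core of the cAMP response element was searched as TGACG. The promoter elements searched were the TATA box as TATAAA and, further upstream in many genes, the element written CCAAT. The CArG box, bound by serum response factor, was the remaining motif.
Id1: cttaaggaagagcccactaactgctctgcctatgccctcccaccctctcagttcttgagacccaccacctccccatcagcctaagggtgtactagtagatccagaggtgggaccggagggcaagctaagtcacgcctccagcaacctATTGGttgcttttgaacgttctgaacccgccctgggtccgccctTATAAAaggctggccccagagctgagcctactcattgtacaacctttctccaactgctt
Id3: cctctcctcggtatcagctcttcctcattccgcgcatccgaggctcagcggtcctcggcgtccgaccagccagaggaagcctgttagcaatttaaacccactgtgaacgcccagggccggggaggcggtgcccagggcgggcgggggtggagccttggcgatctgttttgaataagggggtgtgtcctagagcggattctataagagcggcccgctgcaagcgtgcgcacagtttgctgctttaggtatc
Id2: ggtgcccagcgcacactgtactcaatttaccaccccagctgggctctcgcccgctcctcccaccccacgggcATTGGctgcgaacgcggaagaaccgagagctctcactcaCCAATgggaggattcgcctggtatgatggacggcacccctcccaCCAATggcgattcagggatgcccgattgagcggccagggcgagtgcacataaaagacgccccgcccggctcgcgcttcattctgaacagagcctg
Id1 held 1 TATAAA with its first base at -59 from the start and 1 CCAAT at -103, and Id2 held 3 CCAAT at -178, -139 and -95. Id3 held none of the 6 motifs in this window. Sequence outside the window was not searched, so an absence here does not show that a gene lacks the motif. Of 33469 rat promoters of the same length, 12.9% held TATAAA, 34% CCAAT, 8.69% GGCGCC, 42.9% CAGAC, 18.2% TGACG and 1.5% a CArG box. Promoters were matched for 7 of the 10 members, and a match describes letters only.

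Id1 and Id3, the targets most widely used as readouts of BMP signalling, did not pass the test in either lesion. Id1 had a level of 8.59 to 9.81 in hyperplasia (median 9.25), against 9.41 and 9.52 in young wild type (-0.21 ± 0.29, adjusted p = 0.734). In pheochromocytoma it had 8.99, 9.44, 9.73 and 9.36, against 9.52 and 10.13 in older wild type (-0.43 ± 0.32, adjusted p = 0.405). Groups overlapped in both cases. Id3 had 10.50 to 11.41 in hyperplasia (median 11.09), against 11.09 and 10.76 (0.11 ± 0.35, adjusted p = 0.898). In pheochromocytoma it had 9.20, 10.39, 10.63 and 9.83, against 9.57 and 10.97 (-0.19 ± 0.39, adjusted p = 0.787). The 95% intervals for Id3 were -0.65 to 0.86 and -1.03 to 0.64. With the immediate early mean, described next, as a covariate, Id3 had differences of -0.14 ± 0.14 and -0.06 ± 0.16 (adjusted p = 0.624 and 0.832), and Id1 of -0.39 ± 0.18 and -0.34 ± 0.19 (adjusted p = 0.211 and 0.266). This covariate was chosen after seeing the data.

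Within hyperplasia the arrays fell into separate levels of both genes that matched the Xist level and not the label. On the 4 arrays with Xist (replicates 3 to 6) Id1 was 9.50 to 9.81 and Id3 11.19 to 11.41. On the 4 without Xist (replicates 1, 2, 7 and 8) Id1 was 8.59 to 9.00 and Id3 10.50 to 10.99. The ranges did not overlap, as was so for 8 of the 23 member probe sets (34.8%) and for 15.9% of all probe sets. The mean of the immediate early genes Fos, Egr1, Nr4a1, Junb, Atf3 and Dusp1, which respond within minutes to stimulation of a cell, was 9.22 to 9.99 on the first 4 arrays and 7.50 to 8.40 on the others. Among the tumours, replicates 2 and 3 had immediate early means of 10.18 and 10.26 with Id3 at 10.39 and 10.63, and replicates 1 and 4 had means of 8.09 and 7.79 with Id3 at 9.20 and 9.83. In hyperplasia Xist and the immediate early genes separate the same arrays, so their parts in Id1 and Id3 cannot be told apart.

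**Figure D4:**
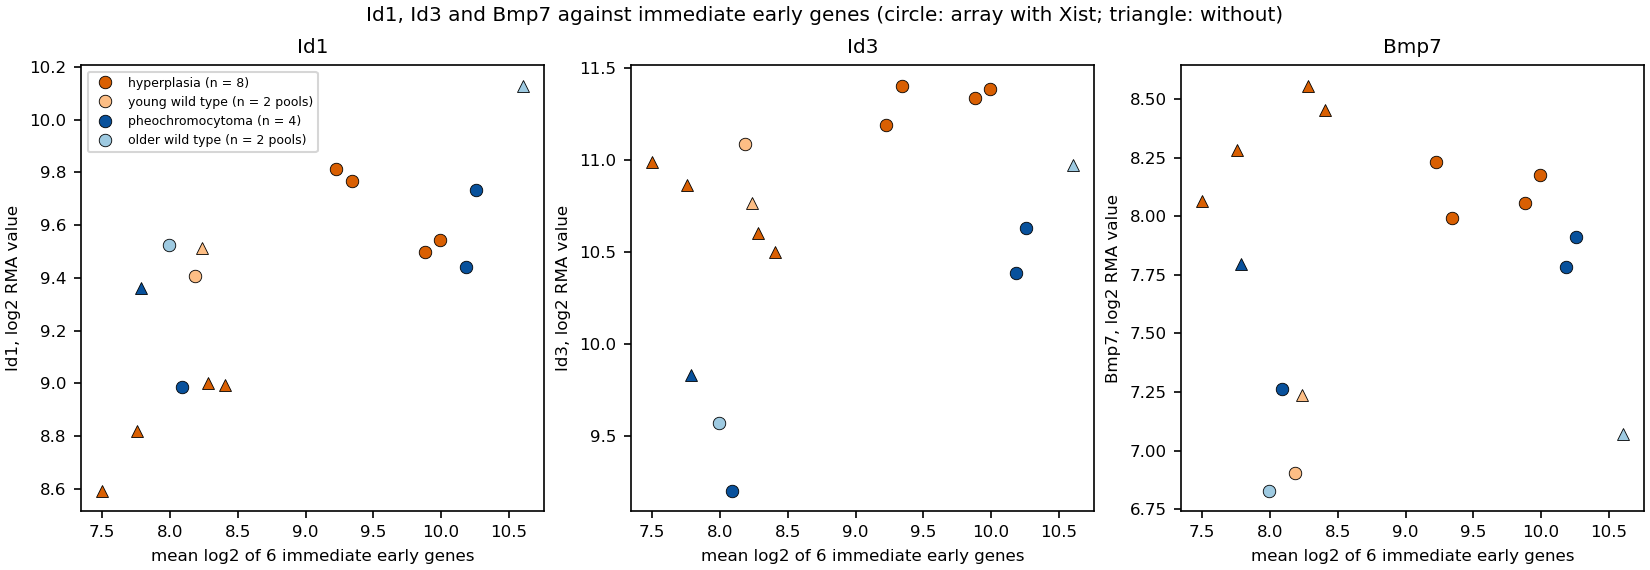
Log2 levels of Id1, Id3 and Bmp7 against the mean log2 level of 6 immediate early genes on each of the 16 arrays, with circles for arrays with Xist and triangles for arrays without. The 4 hyperplasia circles lie above the 4 hyperplasia triangles for Id1 and Id3, whereas for Bmp7 the 2 sets overlap.

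Between the stages, Id3 was lower in pheochromocytoma than in hyperplasia by a difference of -0.96 ± 0.28 (adjusted p = 0.0136). The call was lost without tumour replicate 1 (-0.72, adjusted p = 0.0547) or replicate 4 (-0.77, adjusted p = 0.0915), the pair with low immediate early levels. With the immediate early mean as a covariate, the difference was -1.04 ± 0.11 (adjusted p = 5.4e-06), and with the mean of the endothelial markers it was -0.80 ± 0.34 (adjusted p = 0.0927), which missed the threshold. The immediate early covariate was chosen after seeing the data, in which Id3 varied with it. The smaller SE and p with it, here and between the wild types, are therefore no independent support. Older minus young wild type was -0.66 ± 0.45 for Id3 (adjusted p = 0.313), 0.004 without older pool 1 and -1.31 without older pool 2, and -1.11 ± 0.19 with the immediate early covariate (adjusted p = 0.000792). Id1 did not pass: its difference between the stages was 0.14 ± 0.23 (adjusted p = 0.668). Over all members 7 of 23 probe sets passed between the stages, 2 higher and 5 lower in pheochromocytoma, where 38.7% of all probe sets passed (19.3% higher, 19.4% lower). The 2 not described elsewhere were Bmp2 at 1368945_at (0.76 ± 0.28, adjusted p = 0.0439) and Bmp6 at 1378827_at (-0.29 ± 0.11, adjusted p = 0.0471), and they missed the threshold in 12 and 10 of the 16 fits without 1 array. Of the 23 probe sets, 4 did not overlap between the stages (26.4% of all). These stage differences, Bmp7, Smad6 and Smad7 included, go with the hexokinase difference given above, whose part was not tested. Age goes with stage in this design, so the parts of age and stage cannot be told apart. Without the 4 hyperplasia arrays whose Xist went against the label, Id3 differed by -1.13 (adjusted p = 0.0196), Smad6 by -0.38 (adjusted p = 0.011), Smad7 by 0.48 (adjusted p = 0.0244) and Bmp7 by -0.46 (adjusted p = 0.0285) between the stages. Older and young wild type differed at 3 of 23, 2 higher and 1 lower in older, where 23.4% of all passed (10.3% higher, 13.1% lower), and 12 did not overlap (61.9% of all).

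Smad6 and Smad7, the inhibitory Smads that block BMP receptor signalling (Smad7 also that of TGF-beta), did not pass the test in either lesion at any of their 7 probe sets. The stretch of 250 bases before the Smad7 start (chr18:71263258-71263507, plus strand, RefSeq, GRCr8) is shown because it was the only one of the 7 matched members to hold the GGCGCC motif, in capitals.
Smad7: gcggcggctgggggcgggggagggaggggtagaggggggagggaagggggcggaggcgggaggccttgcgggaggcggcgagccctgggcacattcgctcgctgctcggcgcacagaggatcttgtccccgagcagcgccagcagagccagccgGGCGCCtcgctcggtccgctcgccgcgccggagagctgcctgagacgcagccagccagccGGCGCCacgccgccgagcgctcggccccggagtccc
Its 2 matches began at -96 and -36. Smad7 at its brightest probe set, 1368896_at, ranged over 6.96 to 7.27 in hyperplasia (median 7.14), against 7.31 and 7.28 in young wild type (-0.17 ± 0.15, adjusted p = 0.547). All 8 hyperplasia arrays lay just below both pools. With the mean of the cortex markers as a covariate, the difference in hyperplasia was -0.53 (adjusted p = 0.0423), which passed. Smad7 at this probe set had 7.30, 7.52, 7.39 and 8.06 in pheochromocytoma, against 7.48 and 7.48 in older wild type (0.12 ± 0.17, adjusted p = 0.681). Tumour replicate 4 had the highest Smad7 of the 16 arrays. It also had the highest mean of endothelial markers (9.17, against 8.47 to 8.62 in the other tumours). This tumour was the only one labelled male and the only one aged 9 months. Of the tumours it had the lowest mean of cortex markers (10.94) and the highest of chromaffin markers (13.51). Which of these features goes with its Smad7 level was not tested. Pheochromocytoma exceeded hyperplasia by 0.47 ± 0.12 (adjusted p = 0.00529), and by 0.27 without replicate 4 (adjusted p = 0.0582) and 0.27 with the endothelial mean as a covariate. Older minus young wild type was 0.18 ± 0.19 (adjusted p = 0.525), with both older pools above both young pools. At the other 2 Smad7 probe sets the differences in the lesions lay between -0.10 and 0.08.

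Smad6 at 1375121_at had 6.46 to 6.72 in hyperplasia (median 6.56), against 6.57 and 6.90 in young wild type (-0.15 ± 0.11, adjusted p = 0.448). It had 6.28, 6.23, 6.34 and 6.10 in pheochromocytoma, against 6.47 and 6.56 in older wild type, without overlap (-0.29 ± 0.12, adjusted p = 0.125). Pheochromocytoma was lower than hyperplasia by a difference of -0.36 ± 0.09 (adjusted p = 0.00353). This call held in all 16 fits without 1 array and was lost with the replicate number as a block. Older minus young wild type was -0.22 ± 0.14 (adjusted p = 0.257), with both older pools below both young pools. At the other 3 Smad6 probe sets the differences in the lesions lay between -0.09 and 0.12.

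Upstream and downstream of the members, Smad1, Smad5 and Smad9, the signal transducers of the BMP branch, were higher in both lesions. Genes are counted here by their brightest probe set, and 8.50% of 14217 genes passed in hyperplasia (5.16% higher, 3.33% lower) and 15.3% in pheochromocytoma (8.85% higher, 6.49% lower). Of 11 measured Smad transducers and regulators 4 rose and 0 fell in hyperplasia, and 4 rose and 1 fell in pheochromocytoma. Smad1 was higher by 0.50 ± 0.11 (adjusted p = 0.0136) and 0.81 ± 0.12 (adjusted p = 0.0011) in hyperplasia and pheochromocytoma, Smad5 by 0.42 and 0.49 (adjusted p = 0.0448 and 0.0245), and Smad9 by 0.61 and 0.94 (adjusted p = 0.0357 and 0.00493). In hyperplasia Smad5 missed the threshold in 11 of 16 fits without 1 array (0.30 to 0.55), after quantile normalization and after median centring, and Smad9 missed it in 4 (without replicate 3, 5 or 6 or young pool 2, 0.35 to 0.88). In pheochromocytoma Smad5 missed it without tumour replicate 2 or 4 or older pool 2 (0.31 to 0.71) and Smad9 without older pool 2 (0.67 to 1.24). Smad1 in hyperplasia missed it without either young pool (0.44 to 0.55 without 1 array) and without the arrays whose Xist went against the label. Smad3, which carries TGF-beta and activin signals, fell by 1.03 in pheochromocytoma. Leaving out 1 array gave -1.54 to -0.59 for Smad3, with the call lost without older pool 2. Zfp423, a zinc finger protein that joins Smads on BMP response elements, had the largest differences of the list, 1.56 ± 0.21 (adjusted p = 0.00074) and 1.51 ± 0.23 (adjusted p = 0.0013). Its level was 9.22 to 10.05 in hyperplasia, against 8.20 and 8.33 in young wild type, and 9.63 to 10.39 in pheochromocytoma, against 8.31 and 8.75 in older wild type. Smad4, the partner they share, had differences of 0.02 and 0.10, and neither passed. The list had medians of 0.22 and 0.10, against -0.01 and 0.00 for all genes.

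Of 11 measured receptors and co-receptors 3 rose in hyperplasia and 2 rose and 1 fell in pheochromocytoma (medians -0.11 and 0.13). Rgmb, a BMP co-receptor of the repulsive guidance molecule family, was higher by 0.97 ± 0.16 (adjusted p = 0.0024) and 1.09 ± 0.17 (adjusted p = 0.0017). Acvr1, a type I receptor that binds BMP6 and BMP7, was higher by 0.64 and 0.85 (adjusted p = 0.0146 and 0.0037). Its call in hyperplasia was lost without either young pool (0.54 to 0.75 without 1 array) and without the arrays whose Xist went against the label. Acvr2b, a type II receptor, was higher by 0.63 in hyperplasia (0.30 to 0.97 without 1 array), a call lost without replicate 1, 2, 3 or 6 or young pool 2. Tgfbr3, or betaglycan, fell by 0.79 in pheochromocytoma. Of 16 measured antagonists 0 passed in hyperplasia with limma, where Bmper had the smallest p (-0.30, adjusted p = 0.139), and 1 fell in pheochromocytoma (Vwc2, -0.55, at a level of 2.71 to 3.01, against 3.43 and 3.52). Of the 6 other BMP and GDF ligands measured, Bmp5 was lower in hyperplasia (-0.61, adjusted p = 0.0234) at 3.51 to 4.37, against 4.30 and 4.45, and none passed in pheochromocytoma, where Gdf10 had the smallest p (-0.39, adjusted p = 0.141). These levels of Vwc2 and Bmp5 lie below the first quartile of every array.

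Other BMP targets and the E protein partners of Id proteins went different ways. Of 8 measured targets outside the Id family 1 fell in hyperplasia (Msx2, -0.40), and 1 rose and 2 fell in pheochromocytoma (medians -0.08 and -0.19). The Msx2 call was lost without either young pool and without the arrays whose Xist went against the label. It was also lost with no term for sex and with the Xist level in place of labelled sex. Msx2 was among the 30% dimmest probe sets. Hamp, which encodes the iron hormone hepcidin, had the largest difference of this list, -2.61 ± 0.43 (adjusted p = 0.002), with 7.28 to 8.20 in pheochromocytoma, against 9.41 and 11.59 in older wild type. Leaving out 1 array at a time gave -3.87 to -1.50 for Hamp, the smaller without older pool 2. Atoh8 fell by 1.16 (-1.60 to -0.77 without 1 array, the call lost without older pool 2). Hey1, a Notch and BMP target, rose by 0.77, with 0.16 to 1.48 without 1 array and the call lost without tumour replicate 2 or 4 or older pool 2. Tcf4, an E protein, was higher in both lesions, by 0.90 ± 0.15 (adjusted p = 0.0024) and 0.91 ± 0.16 (adjusted p = 0.003), and Tcf12 rose by 0.57 in pheochromocytoma, a call lost without tumour replicate 1 or 4 or either older pool (0.38 to 0.66). Of 5 measured sympathoadrenal factors that BMPs induce in neural crest, 2 rose in hyperplasia (Gata2, 1.34, and Phox2a, 1.02) and 3 in pheochromocytoma (Phox2a, 0.78, Gata3, 0.56, and Hand2, 0.55). Without 1 array Phox2a in pheochromocytoma had 0.51 to 1.10 (call lost without older pool 2). Gata3 had 0.24 to 0.93 (lost without any one tumour or older pool 2), and Hand2 0.33 to 0.81 (lost without tumour replicate 3 or 4 or older pool 2).

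**Figure D5:**
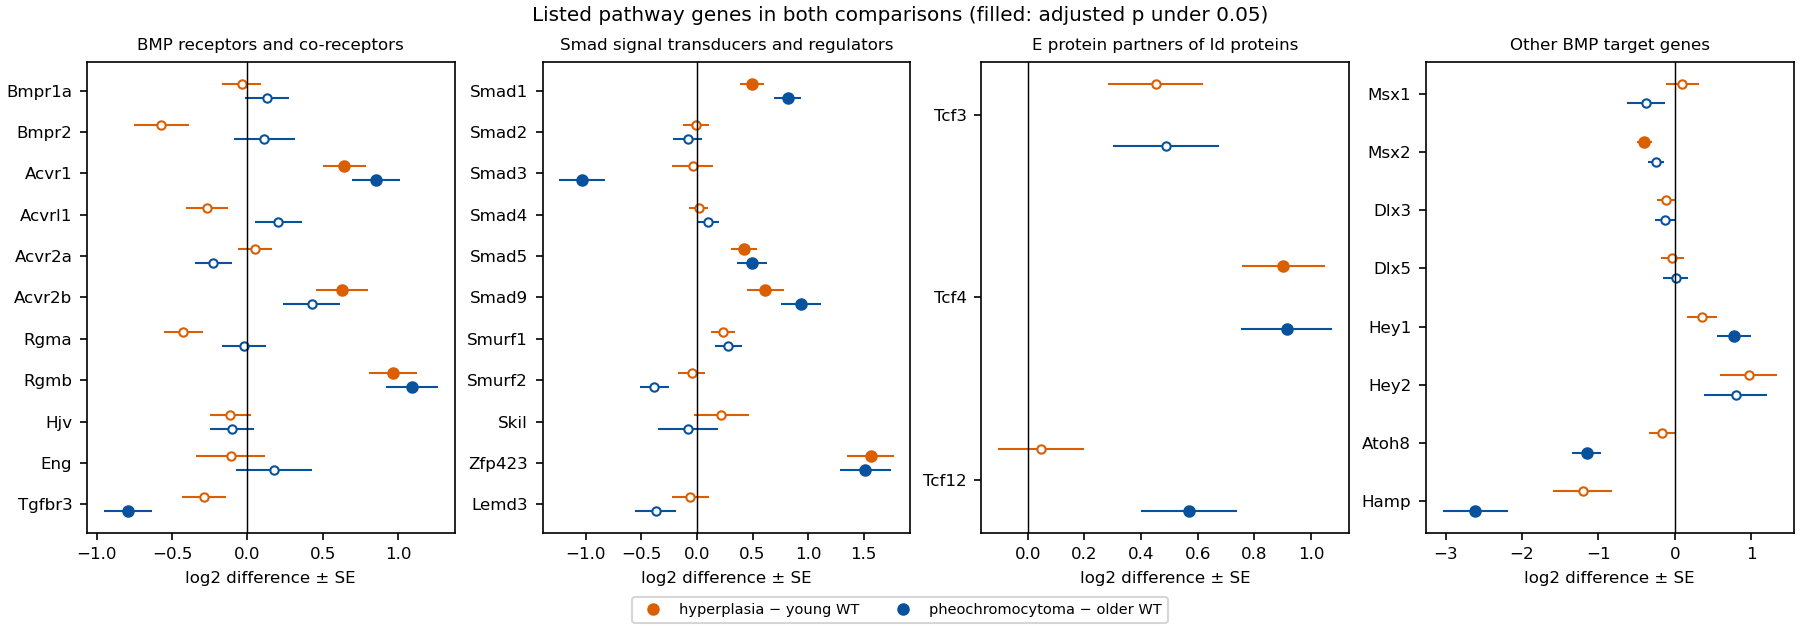
Fitted log2 differences with standard errors for measured genes of 4 pathway lists, hyperplasia minus young wild type in orange and pheochromocytoma minus older wild type in blue, filled where the adjusted p is under 0.05. Rgmb, Acvr1, Smad1, Smad5, Smad9, Zfp423 and Tcf4 are filled and right of 0 in both, and Hamp lies farthest to the left.

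Many pathway calls depended on single arrays, lesion arrays as well as pools, and on the setting. Of 12 called in hyperplasia, 1 (Zfp423) passed without young pool 2, 7 without young pool 1 and 9 to 12 when 1 hyperplasia array was left out. With the mean of the cortex markers as a covariate 1 (Zfp423) passed, with the replicate number as a block 1 (Tcf4), and without the arrays whose Xist went against the label 5 (Rgmb, Zfp423, Tcf4, Phox2a and Gata2). Of 17 called in pheochromocytoma, 4 (Smad1, Zfp423, Hamp and Tcf4) passed without older pool 2, 15 without older pool 1 and 11 to 15 when 1 tumour was left out, 11 of them without replicate 4. With the cortex covariate 0 passed, and with only the arrays of these groups or with the replicate block the same 4 did (Acvr1, Rgmb, Zfp423 and Tcf4). None of these calls changed direction in the 12 other settings or the 16 fits without 1 array.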

How the data were processed

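Total RNA of rat adrenal medulla and its lesions was measured on 16 Affymetrix arrays. The authors deposited log2 values per probe set, and RMA (background correction, quantile normalization, probe summary) is named per the submitters' processing notes, without a version. The sources used here do not say which arrays were normalized jointly. The array medians lay between 6.51 and 6.61. After 57 control probe sets were left out, 31042 remained, and linear models were fitted to them in R 4.3.3 with limma 3.58.1 (4 groups and labelled sex, moderated by eBayes; two-sided; Benjamini-Hochberg within a comparison; adjusted p under 0.05), with 11 residual degrees of freedom. The fit was tested on simulated data. Errors beside differences are SE. For counts of genes, the probe set of highest mean stood for its gene. All member probe sets are reported, with up to 4 called genes per pathway list by size, or the smallest p where 0 passed. The members and lists were chosen with earlier results of these data known. The number of arrays limits the precision. The alternatives were 12 other settings and 16 fits that each left out 1 array.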

Additional observations from a re-analysis of the deposited data

How the results depend on the processing

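Of 503 fits of called member differences, 405 kept direction and side of the threshold, 98 kept direction and missed the threshold, and 0 turned round. In hyperplasia against young wild type, where 3 member probe sets passed, 0 passed with the replicate number as a block and 1 to 4 when 1 array was left out (1, Bmp7, without young pool 2). In pheochromocytoma against older wild type, where 5 passed, 0 passed with only the arrays of these groups, 0 with the replicate block and 0 with the mean of the cortex markers as covariate, and 0 to 7 when 1 array was left out (0 without tumour replicate 4 or older pool 2). For the difference of the effects, 0 passed, and 0 to 6 when 1 array was left out (6, all of Bmp2 and Id4, without older pool 1). Between the stages 7 passed, 4 with the replicate block and 4 to 7 when 1 array was left out (4 without tumour replicate 1). Between older and young wild type 3 passed, and 1 to 8 when 1 array was left out (8 without older pool 1, 1 without older pool 2). The cause of these moves was not tested. Fits on part of the arrays had fewer arrays, and added terms left fewer residual degrees of freedom. The cortex fit left out no array, but cortex marker means separated every lesion array from its pools. Cortex content and lesion therefore cannot be fully told apart in it. The SE of Id1 in pheochromocytoma was 0.32 in the main fit and 0.45 with the cortex covariate. Over all probe sets the replicate block left 89 calls of 2227 in hyperplasia and 571 of 4027 in pheochromocytoma, and the cortex covariate left 326 and 65. Leaving out young pool 2 gave 375 calls in hyperplasia and leaving out older pool 2 gave 466 in pheochromocytoma. The labels do not say that numbers pair the arrays. The correlations of same-numbered arrays were -0.08 and 0.05 in the first comparison and -0.06 and 0.05 in the second. They are not correlations of the log2 levels themselves. With 2 pools in each wild-type group, they cannot settle whether the numbers pair the arrays. Median centring moved the median of all probe sets in pheochromocytoma by -0.06 and gave 1770 of 4105 calls higher, beside 2332 of 4027. A pool of 2 or 3 animals hides the spread between animals. The 6 dim member probe sets, the called Id4 1375120_at among them, are in the lowest 30% by mean level. The sizes of their differences are uncertain.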

Other observations

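Members other than Id1 and Id3 also lay apart between the hyperplasia arrays with Xist (replicates 3 to 6) and those without (replicates 1, 2, 7 and 8). Bmp2 at 1398270_at ran over 7.58 to 7.88 in the first set and 7.95 to 8.20 in the second. Bmp6 was lower on the arrays with Xist at 1378827_at (6.64 to 6.73, against 6.74 to 7.12) and at 1388920_at (5.87 to 6.20, against 6.21 to 6.33). Both Id2 probe sets ran the same way as Bmp2, 11.11 to 11.48 with Xist and 11.59 to 11.94 without at 1375532_at, and 8.19 to 8.29 with Xist and 8.39 to 9.12 without at 1368870_at. Id4 at 1375183_at ran the other way, 5.22 to 5.70 with Xist and 4.50 to 5.18 without. These are values of 4 and 4 arrays that were separated after the data were seen, and no test was made on them.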
